A study of Mus musculus with 12 samples.

Results

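Very long genes are here the protein-coding genes whose record in GENCODE M21, a mouse gene annotation on the GRCm38 genome build, spans more than 300000 bp from first to last base, introns included. The annotation holds 567 of them, and 69 were left out by symbol: ion channel, solute carrier, collagen, kinesin, zinc finger, ankyrin and similar families, and Robo2, Negr1, Chl1, Epha7 and Ptprz1. Of the other 498, a counting interval gave a name by position to 213, and 160 of these had enough reads to be tested. The 53 that were named and not tested had between 0 and 0.695 CPM (counts scaled to a library of 1000000 reads) on average, with a median of 0.197 CPM, and 285 had no interval that could be given to them alone. The series holds 9969 genes named by position in all, and the comparison group was the 4208 tested protein-coding genes that span at most 300000 bp. The families left out by symbol among very long genes were not left out of this comparison group.

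A very long gene is long because of its introns, and RNA polymerase has to travel through all of them before the transcript can be finished. Such genes are common among those that neurons use for adhesion, synapses, axon guidance and signalling, and their output is known to be sensitive to agents that slow elongation, such as inhibitors of the DNA-relaxing enzyme topoisomerase I (Top1). In the trigeminal ganglion, whose sensory neurons supply the cornea, several of them encode synaptic scaffolds, adhesion molecules and the touch channel Piezo2.

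The data are bulk RNA sequencing of trigeminal ganglia of female C57BL/6J mice aged 8 weeks, with 3 libraries in each of 4 groups. The controls were untreated. The injury group was taken 2 weeks after a keratectomy, the removal of the surface layers of the cornea of a random eye over 1.5 mm, done under ketamine and xylazine and followed by 1 dose of the analgesic Ethiqa XR. The injury plus ES group had the same wound and transcutaneous electrical stimulation (ES) over the orbit, with a biphasic ramp current of 300 µA at 20 Hz for 4 minutes daily over 14 days under isoflurane. The ES group had the stimulation and no wound. Anaesthetic, analgesic and handling therefore moved with the groups and cannot be told apart from wound or current. Sham electrodes are mentioned, and no library is labelled as sham. The title speaks of diabetic neuropathy, and no label names diabetes. Neither the number of mice behind a library nor the side of the ganglion is labelled, so the p-values measure only the spread between these libraries, which may be technical. Libraries held 7952798 to 10751547 counted reads, and the 160 tested very long genes together took 0.535% to 0.873% of them. Per the labels only RNA with an integrity number above 7 was used, and no value per library was given. All 4 sensory neuron markers that could be tested were higher in ES and in injury plus ES than in controls, and 2 of them after injury. Markers of other cells moved with injury: after the wound alone, oligodendrocyte markers (3 of 3 higher) summed to 309 to 550 CPM against 99.1 to 160 CPM in controls, and markers of fibroblasts and meninges (4 of 6 higher) to 27329 to 27620 CPM against 9143 to 10009 CPM. Macrophage markers (3 of 5 higher, 1 lower) and Schwann cell markers (2 of 3 higher) moved as well. So did markers of satellite glia (2 of 3 lower, 1 higher) and endothelium (1 of 2 higher). With ES, macrophage markers (3 of 5 lower, 72.8 to 98.2 CPM against 117 to 135 CPM in controls), satellite glia (2 of 3 lower, 1 higher), fibroblasts and meninges (2 of 6 lower) and Schwann cells (2 of 3 higher) moved. Endothelium (1 of 2 higher) and skeletal muscle (1 of 2 lower) moved with ES too. Between injury plus ES and injury, markers of oligodendrocytes (3 of 3), fibroblasts and meninges (4 of 6), macrophages (4 of 5) and Schwann cells (1 of 3) were lower. The part of all these markers in the results below was not tested, and in bulk tissue fewer cells of a type and less RNA per cell cannot be told apart.

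The measurement is of a part of each gene, not of the whole of it. The authors' intervals are those of Ensembl 110 on GRCm39, whereas the counts matched gene positions on GRCm38, so an interval often lay over another gene than the one it was deposited for. A gene was taken as measured by the interval that lay over exons of that gene only, over at least 100 bp of them. For 57 of the 160 this was the interval deposited under the gene's own symbol. The median very long gene was measured through 379 exon bases (shorter genes, 516), out of a median of 10625 merged exon bases. It was under 300 bases in 71 genes and at least 1000 in 43. Measured bases are these exon bases. In 65 genes all measured bases were coding, and in 26 none were. The exon bases were a median of 10.6% of the interval (19.6% in shorter genes), and at least 50% of it in 34 of the 160. Reads over the rest of the interval were counted too, and their part was not tested. Since reads were counted without strand, reads of a gene on the other strand over the same bases cannot be told apart.

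The results below use 2 properties of the measured bases. The first is GC content, with a median of 46.8% in very long genes and 49.6% in shorter ones. The other is how far the measured bases lie from the gene's 3′ end, counted along its merged exons. That median was 4770 bp in very long genes and 2586 bp in shorter ones. Counted along a single protein-coding transcript the medians were 2686 bp (156 genes) and 1831 bp (4079 genes). Promoters were compared too: the 300 bases around the start site, taken from RefSeq for GRCm38.p6, had a median GC of 60.2% in the 124 very long genes matched and 60.8% in 3315 shorter ones, with medians of 17.5 and 20 CpG dinucleotides.

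The following stretches show counted exon bases of 6 very long genes whose differences are described below. Each runs 5′ to 3′ on the gene's strand in GRCm38 and was read from the GENCODE M21 transcripts. Capitals are the bases under the counting interval, with the coordinates given, and the lower-case letters are the 20 bases of the transcript on either side, which lie in neighbouring exons or in the rest of the same exon. Camta1 and Mad1l1 are shown first because their counted exons are alike in base composition (62.6% and 62.2% GC) and moved in opposite directions after injury.
Camta1 (chr4:151086024-151086210, minus strand, exon 13 of 23): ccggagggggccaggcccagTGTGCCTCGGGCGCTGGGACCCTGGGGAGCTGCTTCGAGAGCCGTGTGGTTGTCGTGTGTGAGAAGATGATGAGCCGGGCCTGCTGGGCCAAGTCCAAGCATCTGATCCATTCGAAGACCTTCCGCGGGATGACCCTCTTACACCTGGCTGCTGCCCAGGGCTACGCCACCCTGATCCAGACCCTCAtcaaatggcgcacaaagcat
Mad1l1 (chr5:140307591-140307770, minus strand, exon 4 of 18): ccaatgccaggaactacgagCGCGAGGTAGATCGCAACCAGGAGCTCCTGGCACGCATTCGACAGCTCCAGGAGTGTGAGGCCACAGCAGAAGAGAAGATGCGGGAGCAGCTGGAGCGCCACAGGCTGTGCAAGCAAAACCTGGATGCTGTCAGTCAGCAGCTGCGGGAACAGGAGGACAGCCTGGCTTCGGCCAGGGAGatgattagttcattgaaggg
Rabgap1l (chr1:160738896-160739088, minus strand, exon 3 of 21): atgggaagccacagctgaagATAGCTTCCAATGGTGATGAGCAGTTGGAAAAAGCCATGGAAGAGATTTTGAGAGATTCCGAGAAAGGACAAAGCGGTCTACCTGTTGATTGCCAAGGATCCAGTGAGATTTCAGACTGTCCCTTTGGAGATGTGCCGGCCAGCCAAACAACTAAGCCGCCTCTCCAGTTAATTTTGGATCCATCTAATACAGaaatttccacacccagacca
Dis3l2 (chr1:87044043-87044200, plus strand, exon 16 of 22): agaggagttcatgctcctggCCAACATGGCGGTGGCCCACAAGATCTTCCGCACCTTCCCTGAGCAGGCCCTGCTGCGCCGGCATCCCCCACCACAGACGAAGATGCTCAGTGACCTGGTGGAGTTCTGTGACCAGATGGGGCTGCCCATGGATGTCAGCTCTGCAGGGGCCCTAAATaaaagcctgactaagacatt
Plcb4 (chr2:135958642-135958737, plus strand, exon 18 of 37): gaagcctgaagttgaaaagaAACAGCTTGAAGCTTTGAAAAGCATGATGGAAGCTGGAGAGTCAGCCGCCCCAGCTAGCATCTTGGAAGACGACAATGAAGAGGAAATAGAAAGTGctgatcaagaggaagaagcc
Ptprn2 (chr12:117247657-117247776, plus strand, exon 18 of 23): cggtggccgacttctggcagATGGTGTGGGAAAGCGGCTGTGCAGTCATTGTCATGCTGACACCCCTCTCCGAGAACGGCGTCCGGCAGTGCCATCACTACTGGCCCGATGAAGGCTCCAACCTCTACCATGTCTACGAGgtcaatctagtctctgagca
Each is the longest counted run in one exon, which for Camta1, Dis3l2 and Plcb4 is 187 of 231, 158 of 209 and 96 of 145 counted exon bases. The counted bases of Ptprn2 end 595 bases before the end of the transcript and those of Dis3l2 1046 bases before it. In Mad1l1 the figure was 2110 bases, in Rabgap1l 2164, in Plcb4 3577 and in Camta1 5067. The 6 stretches hold 96 to 193 counted bases, all coding, and between 2 (Plcb4) and 10 (Camta1) CpG dinucleotides.

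After injury alone, 22 of 160 very long genes were higher than in controls and 31 were lower, at an adjusted p under 0.05 in edgeR's quasi-likelihood test with Benjamini-Hochberg adjustment over 13053 intervals. That is 13.8% and 19.4% of them. Of all intervals tested, 19.3% were higher and 11.7% lower, and of the shorter genes 21.01% and 13.0%. The median log2 fold change was -0.23 in very long genes, 0.04 in shorter genes and 0.03 over all intervals. With upper-quartile scaling in place of TMM the median of all intervals moved to -0.16 and that of very long genes to -0.41, with 9 higher and 45 lower, so the split between higher and lower depends on the scaling. Shares of all intervals are given only for the main fit and the fit with GC and 3′ distance trends removed. Counts under other settings are therefore not read as particular to very long genes. The injury and control libraries did not overlap in 89 of 160 genes (55.6%), against 52.6% of all intervals. Of the 53 calls, 20 were kept in each of the 12 fits with 1 library left out (7 higher, 13 lower). The most were lost without injury library 2 (25), without control library 1 (23) and without control library 3 (23).

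Snd1 and Fam110b rose after injury and with ES. Snd1 encodes a nuclease that binds RNA and serves as a transcriptional coactivator. It read 191, 212 and 181 CPM in controls, 358, 399 and 377 CPM after injury, 373, 237 and 340 CPM in injury plus ES, and 369, 388 and 353 CPM in ES. Every treated library lay above every control, and library 2 of injury plus ES was the nearest of them. The log2 difference was 0.96 ± 0.16 (SE, n = 3 a group) for injury (edgeR adjusted p = 0.000994) and 0.93 ± 0.16 for ES (adjusted p = 0.000506). Fam110b, a protein of the centrosome, read 82.8, 82.0 and 68.9 CPM in controls and 123, 156 and 141 CPM after injury. In injury plus ES it read 167, 95.0 and 142 CPM, and in ES 140, 150 and 114 CPM. Its differences were 0.85 ± 0.19 for injury (edgeR adjusted p = 0.0037) and 0.79 ± 0.19 for ES (adjusted p = 0.0040), with no treated library inside the control range.

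Arhgef28, Zbtb7c, Dis3l2 and Mad1l1 rose after injury from lower levels. Arhgef28 encodes an exchange factor for small GTPases that also binds neurofilament RNA. It read 11.9, 11.7 and 11.6 CPM in controls and 29.8, 24.3 and 33.5 CPM after injury, a log2 difference of 1.31 ± 0.22 (edgeR adjusted p = 0.0012). In injury plus ES it read 23.5, 12.1 and 18.7 CPM, above all controls and below all injury libraries. Zbtb7c, a zinc finger transcription factor, had the largest positive log2 difference of the 160 genes: 2.55, 1.48 and 0.703 CPM in controls and 7.88, 11.2 and 6.80 CPM after injury, or 2.44 ± 0.42 on the log2 scale (adjusted p = 0.0013). All of its 398 measured bases are noncoding. Dis3l2 degrades uridylated RNA. It read 11.2, 8.76 and 11.9 CPM in controls and 25.6, 22.3 and 19.0 CPM after injury (1.07 ± 0.20, edgeR adjusted p = 0.0017). With the trends of GC and 3′ distance taken out of each library, its difference was 0.52 with an adjusted p of 0.060, so that call ended. Mad1l1, of the spindle checkpoint, read 3.44, 6.14 and 3.75 CPM in controls and 9.21, 11.9 and 8.47 CPM after injury. Its difference was 1.15 ± 0.31 (edgeR adjusted p = 0.010), lost without control 1 or injury 2 (adjusted p up to 0.0537).

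Camta1, Csmd1, Plcb4, Rabgap1l, Edil3, Rora and Nebl fell after injury, each kept with any 1 library left out. Camta1 encodes a calmodulin-binding transcription activator of neurons. It read 25.5, 28.6 and 18.9 CPM in controls and 6.77, 5.74 and 8.47 CPM after injury, a log2 difference of -1.80 ± 0.36 (edgeR adjusted p = 0.0025). In ES it read 23.4, 25.4 and 62.0 CPM, with library 3 far above the other two. Csmd1, a complement-regulating membrane protein and with 1643050 bp the third longest gene tested, read 1.88, 3.41 and 3.87 CPM in controls and 0.444, 1.17 and 0.555 CPM after injury (-2.04 ± 0.52, adjusted p = 0.0081). Plcb4, a phospholipase C, read 6.43, 7.28 and 5.15 CPM in controls and 1.44, 0.850 and 2.92 CPM after injury (-1.88 ± 0.41, adjusted p = 0.0037). Edil3, a secreted integrin ligand, read 30.3, 25.1 and 35.6 CPM in controls and 10.9, 6.05 and 11.2 CPM after injury (-1.70 ± 0.36, adjusted p = 0.0032). No injury library of these 4 genes reached the control range.

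Rabgap1l, a GTPase-activating protein for Rab proteins, read 9.53, 12.4 and 11.2 CPM in controls, 3.11, 2.97 and 3.75 CPM after injury, 1.90, 7.18 and 4.61 CPM in injury plus ES, and 5.68, 5.40 and 6.29 CPM in ES. Its injury difference was -1.76 ± 0.36 (edgeR adjusted p = 0.0028). Rora, a nuclear receptor, is measured here through 827 noncoding exon bases. It read 14.2, 12.5 and 15.5 CPM in controls, 6.32, 6.37 and 5.14 CPM after injury and 3.36, 6.29 and 5.09 CPM in ES, and both groups were below the controls (injury -1.24 ± 0.33, edgeR adjusted p = 0.0097; ES -1.51 ± 0.33, adjusted p = 0.0025). In injury plus ES, library 2 stood at 11.8 CPM and the other libraries at 5.07 and 5.08 CPM. Nebl encodes nebulette, an actin-binding protein of the Z-disc. It read 22.6, 23.1 and 28.5 CPM in controls and 11.9, 9.45 and 10.8 CPM after injury (-1.21 ± 0.22, adjusted p = 0.0016).

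**Figure D1:**
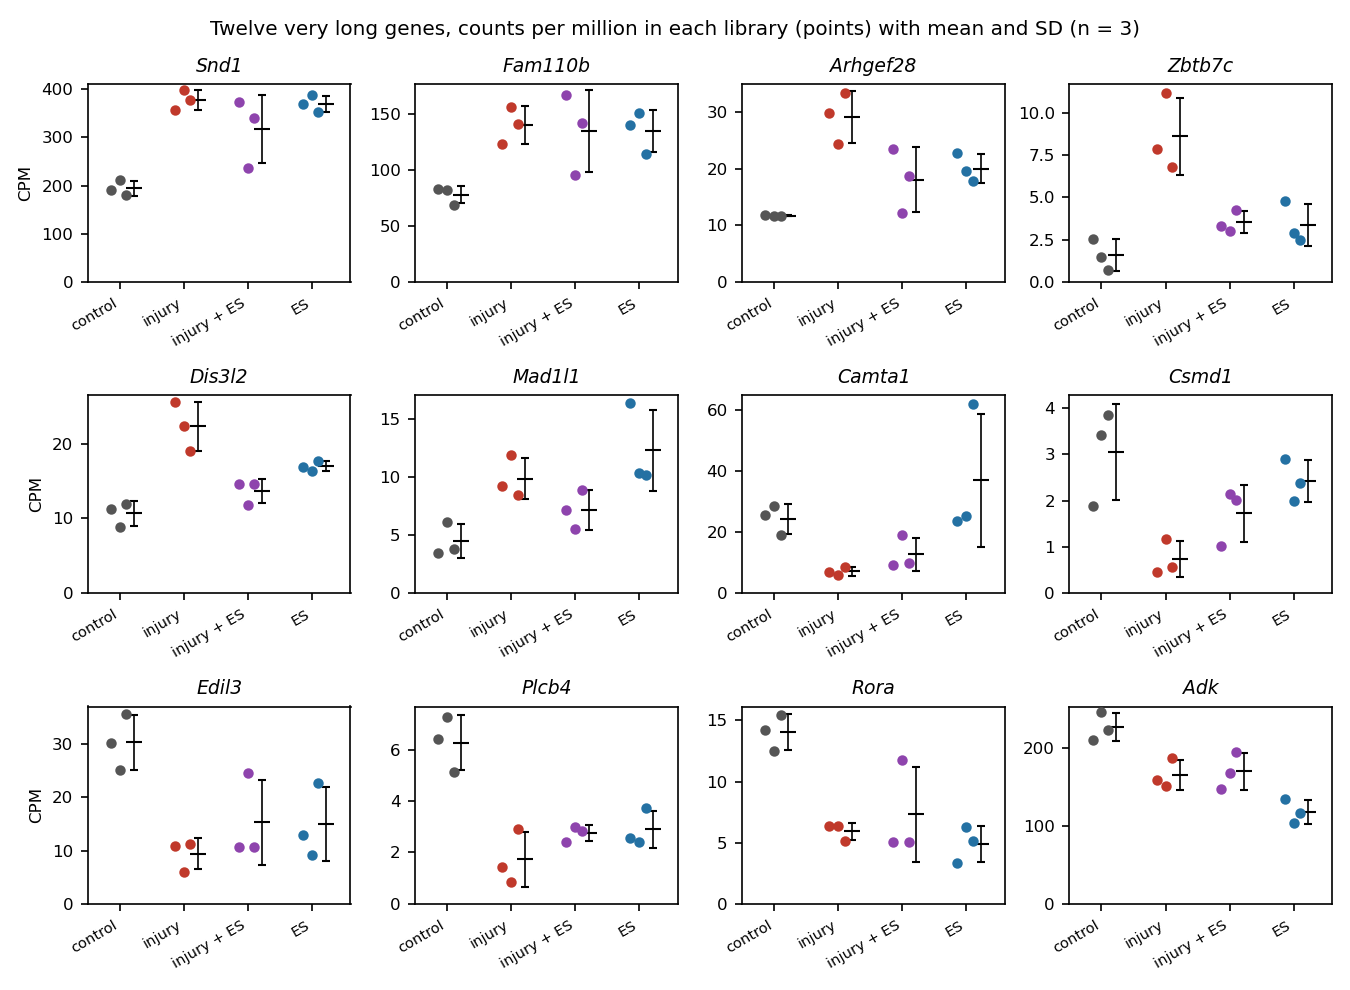
CPM (vertical axis, linear, from 0) of 12 very long genes in each library (points), with the group mean and SD (n = 3), for control, injury, injury plus ES and ES. Snd1, Fam110b, Arhgef28, Zbtb7c, Dis3l2 and Mad1l1 lie higher after injury than in controls, and Camta1, Csmd1, Edil3, Plcb4, Rora and Adk lower, of which the Adk difference turns to 0.11 with GC and 3′ distance trends removed. In Snd1, Fam110b, Arhgef28, Camta1, Edil3 and Rora, library 2 of injury plus ES is nearer to the controls than the other two of its group.

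The position of the measured bases moved with the size and sign of the injury difference. The 13 very long genes measured under 1000 bp from the 3′ end had a median log2 difference of 0.49, with 6 higher and 0 lower, and 7 not called at the adjusted threshold. Of the 710 shorter genes in this class, 293 were higher and 9 lower. The 17 at 1000 to 2000 bp had a median of 0.14, the 35 at 2000 to 4000 bp one of -0.01, the 57 at 4000 to 8000 bp one of -0.56, and the 38 beyond 8000 bp one of -0.69. Of the 57 genes at 4000 to 8000 bp, 4 were higher and 16 lower, and of the 978 shorter genes there 71 were higher and 220 lower. Shorter genes followed nearly the same course, with medians of 0.52, 0.34, -0.01, -0.43 and -0.61 in the same classes. Across the 160 very long genes Spearman's rank correlation between distance and injury difference was -0.39, and across the shorter genes -0.48. Along a single transcript the values were -0.47 (156 genes) and -0.47. Genes are not independent replicates, all points share the same 6 libraries, and these values are descriptions.

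**Figure D2:**
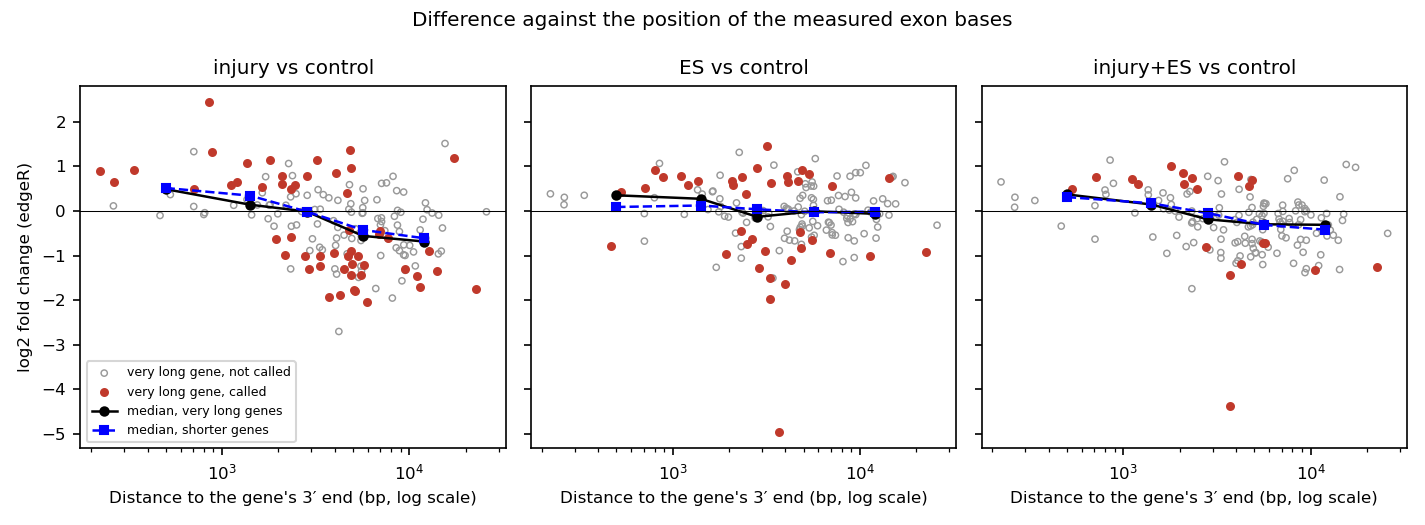
Log2 fold change (edgeR, vertical axis) of the 160 very long genes against the distance of their measured exon bases to the gene's 3′ end (bp, log axis), for injury, ES and injury plus ES against the same controls. Filled points passed the adjusted threshold, and lines join the medians of 5 distance classes for very long (solid) and shorter genes (dashed). After injury both lines run from about 0.5 near the 3′ end down to -0.69 and -0.61 beyond 8000 bp, and with ES alone both end near 0.

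The same measure separates single libraries. For each library the median log2 deviation of the 95 very long genes measured at least 4000 bp from the 3′ end was set against that of the 30 measured under 2000 bp. The difference was 0.43, 0.49 and 0.39 in controls and -0.26, -0.51 and -0.28 after injury. In injury plus ES it was -0.50, 0.33 and -0.34, so that library 2 stood with the controls and the other 2 with the injury group. In ES it was -0.07, -0.11 and 0.45, with library 3 near the controls. Shorter genes, 1269 far and 1647 near, gave values of 0.34 to 0.40 in controls, -0.33 to -0.52 after injury, -0.60, 0.33 and -0.31 in injury plus ES, and 0.06, -0.00361 and 0.61 in ES. Very long and shorter genes thus tilted alike, away from the controls in 5 of the 6 wounded libraries. Libraries 1 and 2 of ES, without a wound, also lay below the controls in both kinds of gene. What moved the tilt was not tested.

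**Figure D3:**
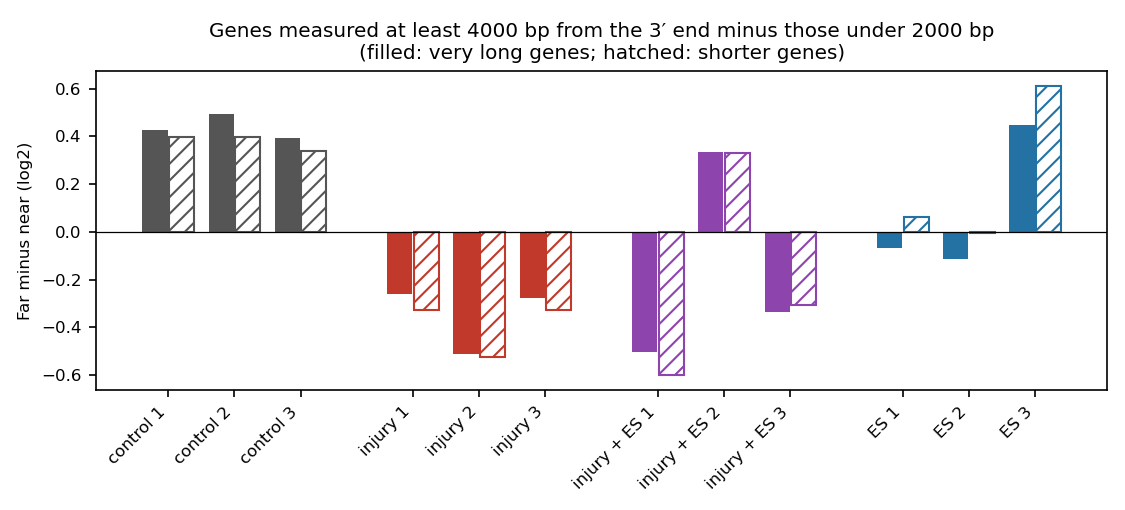
Median log2 deviation of genes measured at least 4000 bp from the 3′ end minus that of genes measured under 2000 bp (vertical axis, log2) in each of the 12 libraries, for very long genes (filled) and shorter genes (hatched). Controls lie between 0.34 and 0.49, injury libraries between -0.26 and -0.52, and library 2 of injury plus ES at 0.33 for both kinds of gene. ES libraries 1 and 2 lie between -0.11 and 0.06, and ES library 3 at 0.45 (very long) and 0.61 (shorter).

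Against shorter genes of like GC, taken in bins of 5 percentage points, the median very long gene was lower by 0.23 after injury (gap -0.23, with 96 genes below and 64 above). The bins were not alike. Below 40% GC very long genes had the higher medians (at 35 to 40%, -0.03 in 22 genes against -0.31). At 45 to 50% GC the medians were -0.04 (44 genes) and -0.06, and in all other bins very long genes were lower. Against shorter genes of like GC and like distance, a comparison added after the data were seen, the gap was -0.02 (81 below, 79 above). With the distance counted along a single transcript it was -0.06 over 154 genes. When the trends of both properties were removed from each library before the test, also added after the data were seen, 19 very long genes were higher and 18 lower after injury, of which 12 and 17 were called in the same direction without the correction. Of all intervals 15.1% were then higher and 7.56% lower, and of the shorter genes 13.9% and 7.60%. The former share includes 5613 intervals without a GC or distance of their own, which were given the median. The calls on Snd1, Arhgef28, Zbtb7c, Fam110b, Mad1l1, Camta1, Csmd1, Plcb4, Rabgap1l, Edil3, Rora and Nebl held under that correction.

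Span alone was looked at in classes. Tested genes under 30000 bp had a median injury difference of 0.30, those of 30000 to 100000 bp -0.16, those of 100000 to 300000 bp -0.35, the 104 of 300000 to 500000 bp -0.18, and the 56 over 500000 bp -0.26. At like GC the gaps ran 0.19, -0.13, -0.32, -0.29 and -0.13, and at like GC and distance 0.06, -0.04, -0.05, 0.04 and -0.05. The classes up to 300000 bp make up the comparison group themselves. Their gaps therefore largely balance by construction, unlike those of the longer classes. The median distance to the 3′ end in these classes was 1820, 3274, 4230, 4837 and 4411 bp. Within the very long genes the rank correlation between span and injury difference was -0.09.

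Around the limit of 300000 bp, just above it lay Pam, the amidating enzyme of neuropeptides (300533 bp, injury log2 difference -0.95), Nxph1, a neurexin ligand (300602 bp, 0.79), and Dync1i1, a dynein intermediate chain (302401 bp, 0.13). Just below it lay Akap13 (299076 bp, -2.04), Klhl29 (298211 bp, -1.18) and Hecw1 (296791 bp, -0.54). At the other end were Cntnap2, a neurexin-like adhesion protein (2244857 bp), Dlg2, a synaptic scaffold (1972576 bp), and Csmd1. Cntnap2 read 3.88, 3.75 and 6.44 CPM in controls, 1.89, 2.02 and 4.44 CPM after injury and 6.61, 6.95 and 11.9 CPM in ES, and Dlg2 4.10, 5.01 and 5.39 CPM, 3.55, 2.66 and 3.19 CPM, and 4.18, 5.29 and 8.84 CPM. Cntnap2 overlapped between injury and controls (-0.77 ± 0.40, edgeR adjusted p = 0.15), and Dlg2 did not overlap and missed the threshold (-0.62 ± 0.37, adjusted p = 0.21).

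ES without a wound, compared with the same 3 controls, gave 21 very long genes higher and 18 lower, 13.1% and 11.2%, beside 18.2% and 11.7% of all intervals and 20.1% and 14.3% of shorter genes. The median was -0.02 (0.05 in shorter genes), and the groups did not overlap in 57 genes (35.6%, against 47.1% of all intervals). The gap to shorter genes of like GC was 0.04, and at like GC and distance 0.07. With upper-quartile scaling 12 were higher and 23 lower. Of the 39 calls, 16 were kept with any 1 library left out. Here base composition went with the difference: the rank correlation between GC and the ES difference was 0.51 over the 160 genes and 0.53 over shorter genes, while that with distance was -0.08 and -0.06. Very long genes of 35 to 40% GC had a median of -0.34 (22 genes), and those of 55 to 60% GC one of 0.56 (15 genes). With GC and distance trends removed, 16 were higher and 5 lower (10% and 3.12%), beside 10.4% and 8.11% of all intervals and 12.7% and 9.39% of shorter genes, and 14 and 4 of them were called in the same direction without the correction.

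**Figure D4:**
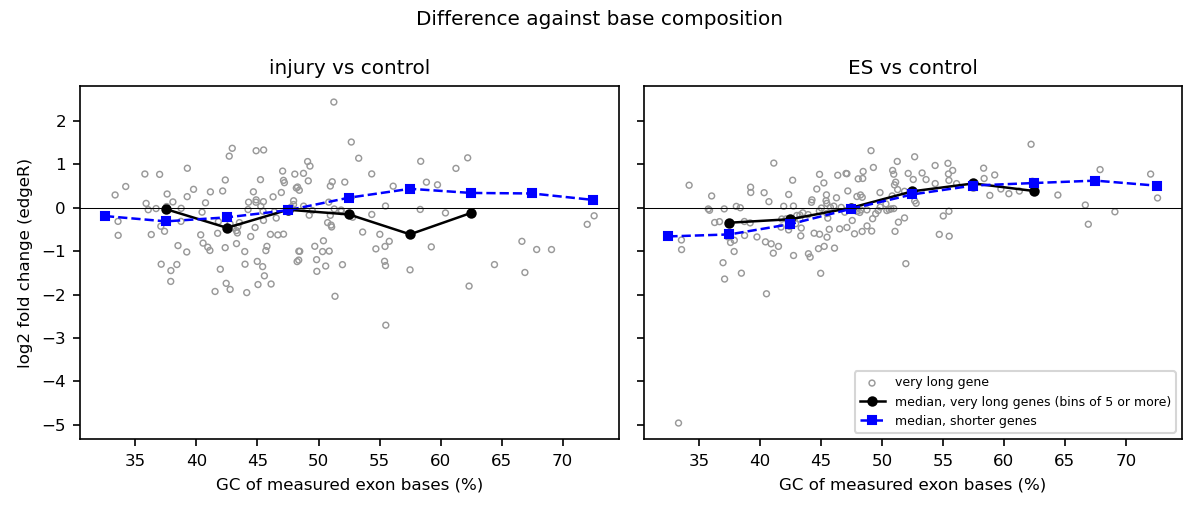
Log2 fold change (edgeR, vertical axis) of very long genes (open points) against the GC content of their measured exon bases (%, horizontal axis) for injury and for ES against the same controls, with medians by bins of 5 percentage points for very long (solid, bins of at least 5 genes) and shorter genes (dashed). With ES alone both lines climb, from -0.34 and -0.61 at 35 to 40% GC to 0.56 and 0.51 at 55 to 60% GC. After injury the shorter genes' line climbs to 0.44 and that of the very long genes stands at -0.61 in the same bin. At 35 to 40% GC the injury median of very long genes was instead the higher (-0.03 against -0.31). At 45 to 50% GC the injury medians were -0.04 and -0.06.

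Adk, Stk3 and Stag1 fell with ES and Ctnnd2, Kirrel3, Gabbr2 and Ptprn2 rose, each with any 1 library left out. Adk, adenosine kinase, read 211, 246 and 223 CPM in controls, 158, 150 and 187 CPM after injury, 147, 168 and 195 CPM in injury plus ES, and 134, 103 and 116 CPM in ES. The ES libraries were the lowest of all, with a log2 difference of -0.94 ± 0.15 (edgeR adjusted p = 0.000345), which was -0.69 (adjusted p = 0.014) with GC and distance trends removed. Stk3, the Hippo pathway kinase MST2, read 70.8, 69.5 and 63.8 CPM in controls and 44.6, 36.6 and 49.8 CPM in ES (-0.64 ± 0.14, adjusted p = 0.0028). Stag1, a cohesin subunit, read 47.3, 50.2 and 50.2 CPM and 25.5, 31.4 and 31.3 CPM (-0.74 ± 0.16, adjusted p = 0.00195). The measured bases of Stag1 have 33.6% GC. With GC and distance trends removed the differences of Stk3 and Stag1 were -0.11 and -0.10, with adjusted p of 0.635 and 0.689.

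Ctnnd2 encodes delta-catenin of the synaptic adherens junction. It read 185, 179 and 178 CPM in controls and 276, 304 and 284 CPM in ES, a difference of 0.67 ± 0.13 (edgeR adjusted p = 0.000956). Kirrel3, a synaptic adhesion protein of the immunoglobulin family, read 37.6, 40.7 and 31.5 CPM in controls and 56.9, 74.4 and 56.4 CPM in ES (0.77 ± 0.17, adjusted p = 0.0023). Both calls held with the trends removed (0.74, adjusted p = 0.0089, and 0.63, adjusted p = 0.017). Gabbr2, a subunit of the GABA-B receptor, read 488, 511 and 486 CPM in controls and 740, 687 and 873 CPM in ES (0.63 ± 0.15, edgeR adjusted p = 0.0038). Ptprn2, a phosphatase-like protein of dense-core vesicles, read 13.9, 17.6 and 16.5 CPM in controls and 27.7, 33.5 and 29.1 CPM in ES (0.91 ± 0.19, adjusted p = 0.00186). Their measured bases have 55.5% and 58.3% GC, and with the trends removed the differences were 0.29 (adjusted p = 0.19) and 0.50 (adjusted p = 0.054). In all 4 genes no ES library reached down into the control range.

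Injury plus ES, again against the same controls, gave 12 higher and 8 lower (7.5% and 5%), beside 12.3% and 4.93% of all intervals and 12.5% and 6.46% of shorter genes. The median was -0.18 (-0.03 in shorter genes), and the groups did not overlap in 50 genes (31.2%, against 32.8% of all intervals). The gap at like GC was -0.09, and at like GC and distance 0.07. This comparison turned on single libraries. Without library 2 of the group, 21 were higher and 37 lower, and without library 3 there were 0 higher and 0 lower in edgeR. DESeq2 on all libraries called 14 higher and 19 lower. With upper-quartile scaling 7 were higher and 19 lower. Removing GC and distance trends gave 13 higher and 3 lower, beside 9.58% and 2.57% of all intervals. Galnt17, a glycosyltransferase, read 170, 213 and 161 CPM in controls and 422, 215 and 345 CPM in injury plus ES (0.85 ± 0.20, edgeR adjusted p = 0.0087), with library 2 just above the highest control. This call was lost without control 3 or injury plus ES 3 (adjusted p up to 0.0659). Dner, a Notch ligand of neurons, read 193, 187 and 199 CPM against 380, 234 and 368 CPM (0.76 ± 0.17, adjusted p = 0.0074), lost without injury plus ES 3 (adjusted p up to 0.0776).

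Injury plus ES compared with injury alone asks what stimulation changed in wounded animals. It called 0 very long genes higher and 1 lower in edgeR, beside 0.0383% and 1.50% of all intervals. At an unadjusted p under 0.05 there were 10 higher and 10 lower, and DESeq2 called 2 higher and 3 lower. With GC and distance trends removed there were 0 higher and 1 lower in edgeR, beside 0.0843% and 1.19% of all intervals. The median was 0.12 (-0.01 in shorter genes), the gap 0.12 at like GC and 0.09 at like GC and distance, and it was -0.01 at like GC without library 2 of injury plus ES. The groups did not overlap in 30 genes (18.8%, against 15.2% of all intervals). The gene called was Trdn, triadin of the skeletal and cardiac muscle calcium release complex. It read 2.11, 0.341 and 7.96 CPM in controls, 2.44, 6.27 and 4.03 CPM after injury, 0, 0.429 and 0 CPM in injury plus ES, and 0.116, 0 and 0.159 CPM in ES. Counts near 0 in both stimulated groups make the fitted differences (-4.67 ± 1.08, edgeR adjusted p = 0.036, against injury) uncertain, and the call was lost without any of the 3 injury libraries, injury plus ES library 1 or 3, or ES library 1 (adjusted p up to 0.24). Against controls the ES difference was -4.96 ± 1.13 (edgeR adjusted p = 0.0033), kept with any library left out. The 7 skeletal muscle markers, of which 2 could be tested, summed to 1.48 to 187 CPM in controls, 42.8 to 121 CPM after injury, 1.54 to 18.9 CPM in injury plus ES and 0.331 to 13.0 CPM in ES. They moved with Trdn, and their part in its difference was not tested.

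The genes are taken by role next. Some were placed in a list that does not match their description here. Csmd1 was placed in vesicle traffic, Plcb4 among kinases, and the scaffolds Gphn and Cask in metabolism. The counts and medians of those lists include them. Rabgap1l was placed in vesicle traffic and not among regulators of small GTPases. Arhgef28, Snd1, Zbtb7c, Dis3l2, Adk and Galnt17 were among genes in no list although described here with a listed role. The counts and medians of the lists leave these genes out. The counts of each list stand beside 19.3% of all intervals higher and 11.7% lower after injury, and 18.2% and 11.7% with ES, and no list's count is read here as differing from those shares. Of 43 injury calls on named genes 17 ended with GC and 3′ distance trends removed, and of 35 ES calls also 17. The 18 tested genes of synaptic and cell adhesion had 2 higher and 5 lower after injury, with a median of -0.41 (all intervals, 0.03). The lower ones were Cntnap4 (-1.77, edgeR adjusted p = 0.0051, kept with any library left out), a neurexin-like protein, the contactin Cntn4 (-1.31, adjusted p = 0.018), astrotactin Astn1 (-1.31, adjusted p = 0.040), the adhesion receptor Adgrb3 (-1.01, adjusted p = 0.038) and the cadherin Cdh18 (-0.59, adjusted p = 0.012). Ctnnd2 (0.40, adjusted p = 0.023) and Kirrel3 (0.50, adjusted p = 0.031) were higher. The call on Cntn4 was lost without control 2 or injury 2 (adjusted p up to 0.0874), that on Astn1 lost without control 1, 2 or 3 or injury 1 or 3 (adjusted p up to 0.153) and that on Adgrb3 lost without control 1 or 3 or injury 1, 2 or 3 (adjusted p up to 0.154). The call on Cdh18 was lost without control 1 or 3 or injury 2 (adjusted p up to 0.0802). That on Ctnnd2 was lost without control 1, 2 or 3, injury 1, 2 or 3, injury plus ES 3 or ES 1, 2 or 3 (adjusted p up to 0.112), and that on Kirrel3 lost without control 1 or 3, injury 1 or 3, injury plus ES 3 or ES 1, 2 or 3 (adjusted p up to 0.132). With ES there were 2 higher, Ctnnd2 and Kirrel3, and 2 lower, Cntn4 (-1.29, adjusted p = 0.017) and Cdh18 (-0.45, adjusted p = 0.046), the former lost without control 2 or ES 2 (adjusted p up to 0.0738) and the latter lost without control 1 or 3, injury 1, 2 or 3 or ES 1 or 2 (adjusted p up to 0.219). The injury calls on Astn1 (adjusted p = 0.121), Adgrb3 (0.12), Cdh18 (0.121) and Kirrel3 (0.0736) ended with the trends removed, and so did the ES call on Cdh18 (0.854). Opcml, an adhesion protein of the IgLON family, read 102, 103 and 122 CPM in controls and 122, 119 and 119 CPM after injury and was not called (0.13, adjusted p = 0.48).

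Of 9 genes of axon guidance and growth factor signalling, 1 was higher after injury, the guidance ligand Slit3, and 1 lower, the large secreted protein Reln. Slit3 read 8.31, 8.65 and 8.08 CPM in controls and 19.3, 19.7 and 7.91 CPM after injury, so that the groups overlapped through injury library 3. Its call (0.91, edgeR adjusted p = 0.028) was lost without control 1, 2 or 3, injury 1 or 2 or ES 1 or 2 (adjusted p up to 0.135), and stood at an adjusted p of 0.110 with the trends removed. Reln (-1.46, adjusted p = 0.030) was measured 11046 bp from the 3′ end, and was not called with the trends removed (adjusted p = 0.127). It was lost without control 1, 2 or 3 or injury 1 or 3 (adjusted p up to 0.12). Sema5a, a semaphorin, read 541, 601 and 482 CPM in controls and 417, 456 and 429 CPM after injury, which did not overlap and missed the threshold (-0.32, adjusted p = 0.12). With ES edgeR called 0 of the 9 (median -0.26), and at an unadjusted p under 0.05 there were 0 higher and 2 lower. Ntrk2, the receptor of brain-derived neurotrophic factor, overlapped between injury and controls, with 8.98, 9.33 and 15.0 CPM in controls and 14.8, 13.6 and 9.30 CPM after injury.

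Of 16 kinases, phosphatases and phosphodiesterases, 0 were higher and 5 lower after injury in edgeR (median -0.40; at an unadjusted p under 0.05, 0 and 8). Beside Plcb4 these were the protein kinase C Prkce (-1.43, edgeR adjusted p = 0.031), the calmodulin kinase Camk1d (-1.003, adjusted p = 0.013) and the phosphodiesterases Pde10a (-0.99, adjusted p = 0.026) and Pde1c (-0.91, adjusted p = 0.0072). Pde1c was kept with any library left out and ended with the trends removed (-0.37, adjusted p = 0.15), and Camk1d was lost without injury 2 (adjusted p up to 0.0702). Prkce was lost without control 1 or 2 or injury 1, 2 or 3 (adjusted p up to 0.104), and Pde10a lost without control 1 or injury 1, 2 or 3 (adjusted p up to 0.152). With ES, 3 were higher and 4 lower. Camk1d was among the higher (0.84, adjusted p = 0.024), with Ptprn2 and the kinase C Prkcb (0.65, adjusted p = 0.034). The lower were Dgkb (-1.64, adjusted p = 0.031), Plcb4 (-1.10, adjusted p = 0.041), Pde1c (-0.83, adjusted p = 0.010) and Stk3. In the ES comparison Camk1d was lost without control 1 or 3 or ES 3 (adjusted p up to 0.147), Prkcb lost without control 2 or 3 or ES 1 or 2 (adjusted p up to 0.214), Dgkb lost without control 1 or 3 or ES 1 or 2 (adjusted p up to 0.108) and Plcb4 lost without control 1, 2 or 3, injury 1 or ES 1 or 2 (adjusted p up to 0.133). With the trends removed the ES calls on Dgkb (adjusted p = 0.117), Plcb4 (0.147), Pde1c (0.107), Prkcb (0.189), Ptprn2 and Stk3 ended, so that of these 7 genes Camk1d alone kept its ES call (0.86, adjusted p = 0.0056). Cdk14, a cyclin-dependent kinase, read 360, 397 and 346 CPM in controls and 290, 273 and 309 CPM after injury, which did not overlap and missed the threshold (-0.34, adjusted p = 0.064).

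Of 16 genes of transcription and RNA binding, 2 were higher after injury, Tshz2 (1.14, edgeR adjusted p = 0.012) and Auts2 (1.19, adjusted p = 0.049), and 2 lower, Camta1 and Rora (list median -0.21). Tshz2 was lost without control 1 or 3 (adjusted p up to 0.0589), and Auts2 lost without control 1 or 2, injury 1, 2 or 3, injury plus ES 2 or 3 or ES 1, 2 or 3 (adjusted p up to 0.177). With ES 1 gene of the list was called, Rora. Snd1, Zbtb7c and Dis3l2, called higher after injury and described above with roles in transcription or RNA, were in no list. The counts and the median of this list leave them out. Zbtb20, the RNA-binding Celf2 and Ehbp1, an endocytic adaptor placed in this list, were not called in any comparison: Zbtb20 read 55.0, 57.4 and 47.2 CPM in controls and 52.9, 50.6 and 53.3 CPM after injury.

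Of 13 genes of vesicle traffic and endocytic receptors, 2 were higher after injury (Unc13c, 0.64, edgeR adjusted p = 0.026, and Fam155a, 0.59, adjusted p = 0.023) and 3 lower (Csmd1, Rabgap1l and Cadps2, -0.44, adjusted p = 0.018), with a median of -0.38. Unc13c and Cadps2 prime synaptic and dense-core vesicles for release, and Fam155a serves the sodium leak channel. Unc13c is measured 264 bp from the 3′ end and read 10.9, 13.3 and 11.7 CPM in controls and 19.7, 17.2 and 19.0 CPM after injury. With the trends removed it was 0.30 (adjusted p = 0.23), Fam155a 0.17 (adjusted p = 0.50) and Cadps2 0.06 (adjusted p = 0.80). The injury call on Unc13c was lost without control 1 or 3, injury 1 or 3, injury plus ES 3 or ES 1 or 2 (adjusted p up to 0.0984), that on Fam155a lost without control 2 or 3, injury 1 or 3, injury plus ES 3 or ES 1 or 2 (adjusted p up to 0.108) and that on Cadps2 lost without control 3 or injury 2 or 3 (adjusted p up to 0.103). With ES, Fam155a was higher (0.79, adjusted p = 0.0037), and Cadps2 (-0.47, adjusted p = 0.012) and Rabgap1l (-0.93, adjusted p = 0.0499) were lower, Cadps2 lost without control 3 (adjusted p up to 0.0849) and Rabgap1l lost without control 1, 2 or 3, injury 1, 2 or 3 or ES 1, 2 or 3 (adjusted p up to 0.146). With the trends removed the ES call on Fam155a held (0.56, adjusted p = 0.036), and those on Cadps2 (-0.13, adjusted p = 0.60) and Rabgap1l (-0.80, adjusted p = 0.061) ended.

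Of 13 genes of cytoskeleton, dystrophin complex and scaffold, the microtubule guide Nav2 was higher after injury (0.65, edgeR adjusted p = 0.023) and the cytolinker dystonin, Dst, lower (-1.36, adjusted p = 0.0073, kept with any library left out). The median was -0.62. Dst, whose loss causes sensory neuron degeneration in mice, is measured 14059 bp from the 3′ end and stood at -0.68 (adjusted p = 0.0496) with the trends removed. Nav2 was lost without control 1 or 2, injury 1 or 2, injury plus ES 3 or ES 1 (adjusted p up to 0.115). With ES, Nav2 (0.57, adjusted p = 0.041) and the nuclear envelope protein Syne1 (0.43, adjusted p = 0.026) were higher, Nav2 lost without control 1 or 2, injury plus ES 3 or ES 1 or 2 (adjusted p up to 0.292) and Syne1 lost without control 1, 2 or 3, injury plus ES 3 or ES 1 or 2 (adjusted p up to 0.24). Removing the trends ended the injury call on Nav2 (adjusted p = 0.063), and the ES calls on Nav2 (adjusted p = 0.019) and Syne1 (adjusted p = 0.0088) held. Syne1 read 162, 180 and 183 CPM in controls and 223, 263 and 222 CPM in ES. Dync1i1 read 454, 480 and 511 CPM in controls, 482, 544 and 555 CPM after injury and 620, 588 and 539 CPM in ES, and Utrn, the utrophin gene, 49.995, 72.1 and 51.5 CPM, 34.2, 30.0 and 33.9 CPM, and 36.9, 40.4 and 76.7 CPM. Neither was called (injury adjusted p = 0.54 and 0.057).

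Of 7 receptors and channels, 0 were higher and 1 was lower after injury (at an unadjusted p under 0.05, again 0 and 1), the calcium release channel Ryr2 (-0.89, edgeR adjusted p = 0.027, -0.24 and not called with the trends removed, adjusted p = 0.44). With ES, 2 were higher, Piezo2 and Gabbr2, the latter not called with the trends removed. Piezo2 is the mechanically gated channel of touch neurons. It read 15.0, 17.1 and 11.9 CPM in controls, 13.0, 13.3 and 15.0 CPM after injury, 23.5, 14.3 and 17.2 CPM in injury plus ES and 21.5, 27.8 and 24.8 CPM in ES. Only the ES libraries lay wholly above the controls (0.75 ± 0.21, adjusted p = 0.013), which held with the trends removed (0.91, adjusted p = 0.034) and was lost without control 3 or ES 2 (adjusted p up to 0.0858). The injury call on Ryr2 was lost without control 1 or 3 or injury 1, 2 or 3 (adjusted p up to 0.0887). Gpr158, an orphan receptor, read 72.9, 65.6 and 79.9 CPM in controls and 73.9, 85.1 and 79.8 CPM after injury and was not called.

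Of 10 genes of matrix, proteoglycans and glycan enzymes, 1 was higher after injury and 2 lower. The lower were Edil3 and the thrombospondin-domain protein Thsd7a, and the higher was Vwa8, a mitochondrial ATPase placed in this list. Thsd7a read 266, 280 and 263 CPM in controls, 196, 177 and 189 CPM after injury and 198, 268 and 215 CPM in injury plus ES (injury -0.53 ± 0.16, edgeR adjusted p = 0.018). With the trends removed it was 0.07 (adjusted p = 0.71), and the call was lost without control 1 or 2 or injury 2 or 3 (adjusted p up to 0.081). Vwa8 (0.53, adjusted p = 0.039) was lost without control 1, 2 or 3, injury 1, 2 or 3, injury plus ES 2 or 3 or ES 1, 2 or 3 (adjusted p up to 0.123). The median of the list was 0.08, and -0.11 with upper-quartile scaling. With ES, Edil3 (-1.01, adjusted p = 0.037) and the glycosyltransferase Mgat4c (-1.98, adjusted p = 0.018) were lower, the former lost without control 1 or 3, injury 1 or 3 or ES 1 or 2 (adjusted p up to 0.144) and the latter lost without control 3 or ES 2 (adjusted p up to 0.0964). With the trends removed the injury call on Vwa8 (0.03, adjusted p = 0.91) and the ES calls on Edil3 (adjusted p = 0.077) and Mgat4c (adjusted p = 0.064) ended.

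Of 6 genes of metabolism, protein turnover and repair, Btbd9 was higher after injury (0.60, edgeR adjusted p = 0.029) and Gphn lower (-1.01, adjusted p = 0.0081, kept with any library left out). Gphn encodes gephyrin, the scaffold of inhibitory synapses. Btbd9, an adaptor of a ubiquitin ligase, read 22.9, 33.2 and 23.3 CPM in controls, 40.7, 41.3 and 38.3 CPM after injury and 39.5, 45.3 and 34.9 CPM in ES. Its injury call was lost without control 1 or 3, injury 1, 2 or 3, injury plus ES 3 or ES 1, 2 or 3 (adjusted p up to 0.118). With ES, Btbd9 was higher (0.59, adjusted p = 0.030) and the scaffold Cask (-0.65, adjusted p = 0.033) and the pyrimidine-degrading enzyme Dpyd (-0.79, adjusted p = 0.035) lower. These calls were lost without control 1 or 3, injury plus ES 3 or ES 1 or 2 (adjusted p up to 0.182), lost without control 1, 2 or 3 or ES 1 or 2 (adjusted p up to 0.0993), and lost without control 2 or 3, injury 1 or ES 1, 2 or 3 (adjusted p up to 0.125). The calls on Btbd9 (adjusted p = 0.087 for injury and 0.13 for ES), Cask (0.21) and Dpyd (0.16) ended with the trends removed. Of the 2 genes tested in the list of small GTPase regulators, Arhgap15 and Dock2, neither was called. That list does not hold Arhgef28, in no list, or Rabgap1l, in vesicle traffic, which were both called after injury. The 50 genes in no list had 12 higher and 10 lower after injury, and 10 higher and 5 lower with ES.

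**Figure D5:**
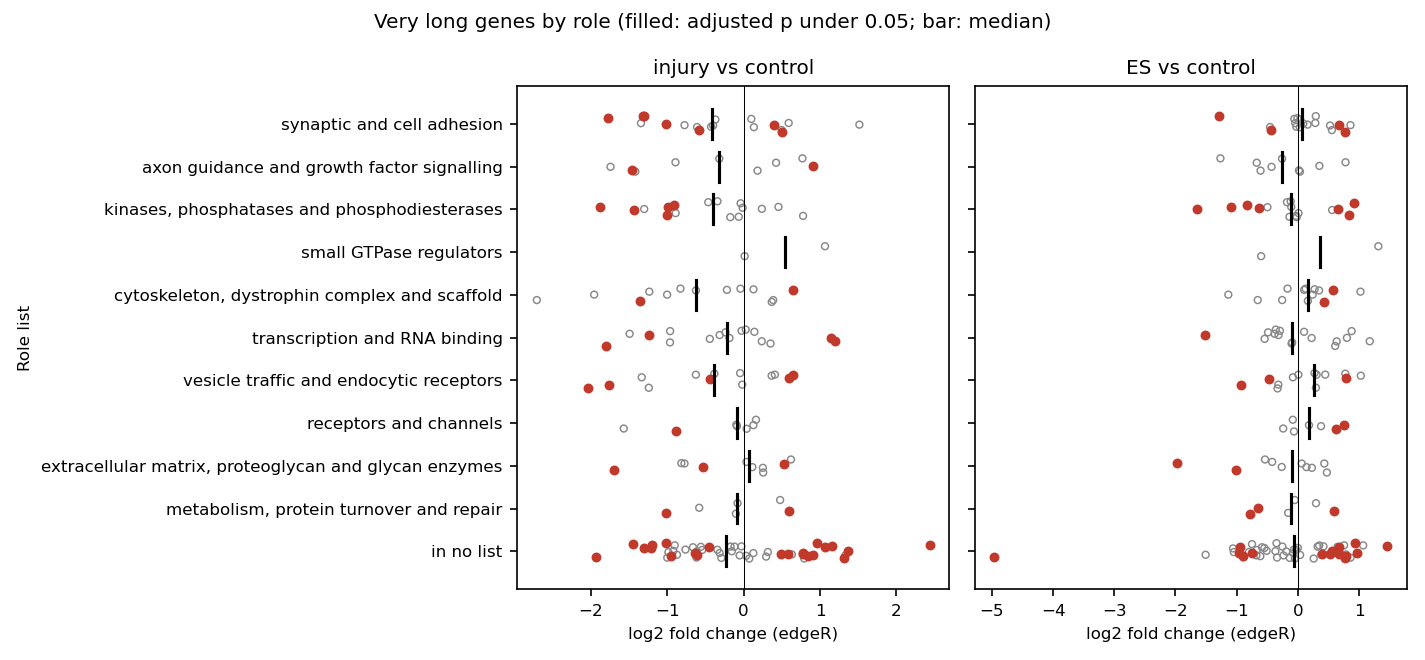
Log2 fold change (edgeR, horizontal axis) of the 160 tested very long genes by role list, for injury and for ES against the same controls. Filled points passed the adjusted threshold and bars are list medians. After injury the medians of the lists of synaptic and cell adhesion (-0.41), kinases (-0.40) and cytoskeleton (-0.62) lie below 0, and with ES those of the 3 lists are 0.06, -0.11 and 0.16 (-0.09, -0.27 and 0.00748 with upper-quartile scaling). The ES medians of axon guidance (-0.26, or -0.41 so scaled) and vesicle traffic (0.27, or 0.12) lie further from 0.

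Genes that act on the transcription of long genes form a list of their own, of topoisomerases, elongation factors, polymerase subunits and methyl-DNA readers. They are not themselves very long. Of 56 listed, 26 could be tested: 3 were higher and 5 lower after injury, 7 higher and 1 lower with ES, 2 higher and 1 lower in injury plus ES, and 0 in either direction between injury plus ES and injury. All intervals had 19.3% and 11.7% after injury, 18.2% and 11.7% with ES, and 12.3% and 4.93% in injury plus ES, and no count of this list is read as differing from those shares. Top1 was lower after injury (log2 difference -1.26, edgeR adjusted p = 0.034) and in injury plus ES (-1.34, adjusted p = 0.040), and was not called with ES (-0.52, adjusted p = 0.37). With GC and 3′ distance trends removed both Top1 calls ended (-0.76, adjusted p = 0.16, and -0.95, adjusted p = 0.11). Supt5 (1.03, adjusted p = 0.0011) and Supt6 (0.98, adjusted p = 0.0022), elongation factors that travel with the polymerase, and Polr2a, its largest subunit (0.79, adjusted p = 0.043), were higher with ES and not called after injury. Ccnt1, a cyclin of the elongation kinase, was lower after injury (-1.42, adjusted p = 0.0015). The calls on Supt5, Supt6 and Polr2a with ES and on Ccnt1 after injury held with the trends removed (adjusted p = 0.0028, 0.000586, 0.021 and 0.0093). These genes are measured 3850 bp (Top1), 4775 bp (Supt5), 5527 bp (Supt6), 4928 bp (Polr2a) and 5831 bp (Ccnt1) from the 3′ end.

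Reads inside introns were counted apart from the exon results, over a wider set of genes. In total 2171 intervals lay wholly inside introns of 433 very long genes. They summed to 269, 271 and 306 CPM in controls, 315, 309 and 260 CPM after injury, 324, 254 and 244 CPM in injury plus ES, and 229, 226 and 163 CPM in ES. Injury overlapped the controls, and the 3 ES libraries lay below all of them. Of the 55 of these intervals that could be tested, 3 were higher and 2 lower after injury, and 2 higher and 4 lower with ES. Of 423 tested inside introns of shorter genes, 13 were higher and 42 lower after injury, and 2 and 11 with ES. The median injury log2 difference was 0.05 in the 55 and -0.65 in the 423. All intervals had 19.3% higher and 11.7% lower after injury, and 18.2% and 11.7% with ES. None of these counts is read as particular to very long genes. In shorter genes the same sum was 1819, 1880 and 1947 CPM in controls 1467, 1454 and 1205 CPM after injury and 1234, 1226 and 1282 CPM in ES, with every injury and ES library below the controls, so the lower ES sum was seen in shorter genes too. Poly(A) selection leaves few intron reads, and whether these come from unspliced RNA, unannotated exons or other transcripts was not tested.

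Whether the injury difference itself depended on stimulation was tested as an interaction. It passed in 18 of 160 very long genes (11 positive, 7 negative), beside 19.2% of all intervals, and in 8 with GC and distance trends removed, beside 7.49% of all intervals. The term was negative in genes called higher in both single treatments, such as Snd1 (-1.18 ± 0.22, edgeR adjusted p = 0.00345), Arhgef28 (-1.46 ± 0.31, adjusted p = 0.0061), Dis3l2 (-1.38 ± 0.28, adjusted p = 0.0047) and Mad1l1 (-1.93 ± 0.42, adjusted p = 0.0069). It was positive in Rora (1.81 ± 0.47, edgeR adjusted p = 0.015), which fell in both, and in Adk (0.98 ± 0.21, adjusted p = 0.0063). The Adk injury call (-0.45, edgeR adjusted p = 0.030) was lost in 5 of the 12 fits with 1 library left out and turned to 0.11 (adjusted p = 0.68) with the trends removed. Under that correction the interaction calls on Adk (adjusted p = 0.12) and Dis3l2 (adjusted p = 0.090) ended, as did the ES call on Dis3l2 (0.19, adjusted p = 0.53), and those on Snd1, Arhgef28, Mad1l1 and Rora held. The term uses all 4 groups and so shares its libraries with the comparisons above.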

How the data were processed

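Bulk RNA of 12 trigeminal ganglion libraries was analysed from the deposited read counts, made by the authors with featureCounts 2.0.6 on 56941 Ensembl 110 intervals of GRCm39, without strand, with reads allowed in overlapping genes, per the file headers. The aligner's version and the alignment build were not given in the sources used here. Tools named in the submitters' processing notes are FastQC, DESeq2 and Salmon 1.10.2. That the reads lay on GRCm38 was inferred from which gene positions the counts matched, so genes were named by position with GENCODE M21 and bedtools 2.31.1, from the interval over at least 100 bp of exons of that gene alone with the most exon bases.

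Counts of all 12 libraries were fitted together in edgeR 4.0.16 (quasi-likelihood, robust, TMM scaling, filterByExpr; R 4.3.3), with Benjamini-Hochberg adjustment over 13053 tested intervals and a threshold of 0.05. The biological coefficient of variation was 0.235. CPM are counts scaled to 1000000 reads of the TMM-scaled library, and counting error alone is large for the 65 genes under 5 CPM. All 3 comparisons with controls share the same 3 libraries. Simulated data for injury against control on 13053 intervals recovered 100% of log2 rises of 2, 44% of rises of 1, 24% of falls of -1 and 84% of falls of -2, with 6 false calls. These were drawn once, with the same spread for all intervals and without trends of GC or distance between libraries. The number of false calls therefore does not give the rate in the real data.

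The gap is a gene's log2 difference minus the median of shorter genes in the same bin of 5 percentage points of GC, given as a median over genes with no test. Trends of GC and distance were removed per library as smooth offsets. GC was missing for 1332 tested intervals and GC or distance for 5613. A missing value was set to the median, and these intervals were kept in the shares of all intervals. Those shares are therefore less fully corrected than the counts of very long and shorter genes. Deviations per library used log2 of CPM plus 0.5. Alternatives were DESeq2 1.42.0, upper-quartile scaling, other filters, spans, naming rules and comparators, a replicate block and leaving out each library. The genes and lists were chosen with earlier results of these data known. Named were the called genes with the smallest p among those with at least 1 CPM and no overlap (up to 10 a comparison), the 3 most abundant of each list, the 3 longest, the 3 nearest the span limit on each side and up to 4 by interaction. Called list members were added with their values known. One gene that the rule named is not reported here.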

Additional observations from a re-analysis of the deposited data

Results flagged for a closer look

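In 16 very long genes named above the injury difference was not the same with stimulation as without it, by edgeR's test of the interaction (difference with stimulation minus difference without, log2, adjusted p under 0.05). It was lower with stimulation in Snd1 (-1.18), Fam110b (-0.85), Arhgef28 (-1.46), Dis3l2 (-1.38), Mad1l1 (-1.93) and Zbtb7c (-2.36), which were higher after injury alone. It was higher in Nebl (1.04), Edil3 (1.72), Plcb4 (1.79), Adk (0.98), Rora (1.81), Cdh18 (0.77), Cadps2 (0.57), Cntn4 (1.73) and Pde1c (1.101), which were lower after injury alone. With stimulation the injury difference is taken against ES alone. ES alone was itself called in the same direction as injury in all of these but Zbtb7c and Nebl. In Fam110b the log2 difference from controls was 0.85 for injury, 0.79 for ES and 0.79 for injury plus ES. Naming genes for calls on the same libraries also favours an interaction of opposite sign. The sign therefore does not show that stimulation undid the injury change. Stag1 (0.70) was lower with ES alone and was not called after injury. Of these 16, 6 kept the call with any 1 library left out: Snd1, Arhgef28, Dis3l2, Adk, Mad1l1 and Rora. With GC and 3′ distance trends removed, 9 of the 16 ended, Dis3l2 (adjusted p = 0.090) and Adk (0.12) among them, and with GC trends alone removed 9 ended, with Dis3l2 (0.077) and Mad1l1 (0.052). Snd1, Arhgef28 and Rora held under both. The injury differences of Adk and Cadps2 turned above 0 with GC and 3′ distance trends removed.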

How the results depend on the processing

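Counts below are very long genes called higher and lower. The shares of all intervals under these settings are not given beside them, so no count is read as particular to very long genes. DESeq2 gave 2 and 3 for injury plus ES against injury, and 19 lower for injury plus ES against control. Upper-quartile scaling gave 9 higher for injury, 12 higher for ES, 7 and 19 for injury plus ES against control, and 0 lower against injury. Without a filter on low counts the injury gap was -0.30, and the counts were 2 and 3 against injury and 13 lower for injury plus ES against control. Fitting only the groups compared gave 54 lower for injury and 3 and 4 for injury plus ES against control.

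Removing GC trends left 5 lower for ES and 9 interaction calls. Removing GC and 3′ distance trends, chosen after seeing the data, left 18 lower for injury, 5 for ES, 3 for injury plus ES against control and 8 interaction calls, and turned the gaps to 0.0202 for injury and 0.0822 for injury plus ES against control. It also turned the injury differences of Adk (0.11), Cadps2 (0.0633) and Thsd7a (0.0715). Against comparators of like GC and distance, also chosen after seeing the data, these gaps were -0.0194 and 0.0749, and along 1 transcript -0.0638 and 0.0389.

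With at least 300 bp of exon there were 17 lower for injury (gap -0.12), 10 for ES and 4 for injury plus ES against control (gap -0.0156). With intervals at least 50% exon the counts were 7 and 8 for injury (gap -0.15), 7 and 6 for ES (gap 0.13), 4 and 0 for injury plus ES against control (gap -0.0135) and 0 lower against injury (gap 0.23), with 8 interaction calls. A span over 200000 bp gave 34 and 60 for injury (gap -0.32), 34 and 36 for ES, 19 lower for injury plus ES against control (gap -0.16), 1 and 2 against injury and 39 interaction calls. A span over 500000 bp gave 6 and 10 for injury (gap -0.13), 6 and 9 for ES (gap -0.00483), 5 and 1 for injury plus ES against control, 0 lower against injury and 6 interaction calls. These sets hold more or fewer genes by construction; for the other settings the cause was not tested.

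The replicate numbers do not pair the libraries: 1 of 18 same-numbered pairs correlated above 0.1 (range -0.26 to 0.20). With a replicate block, 0 were lower in injury plus ES against injury. With the block and GC trends removed that count was also 0, ES had 12 and 5, injury plus ES against control 3 lower, and the interaction 2.

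Leaving out 1 library gave 10 to 23 higher and 18 to 49 lower for injury (gap -0.32 to -0.19), 10 to 23 and 9 to 22 for ES (gap -0.0494 to 0.13), 0 to 21 and 0 to 37 for injury plus ES against control (gap -0.15 to -0.0326), 0 to 1 and 0 to 2 against injury (gap -0.0102 to 0.20), and 8 to 28 interaction calls. Of 113 calls on 74 named genes, 38 held in all 12 of these fits. Depth limits the 65 genes under 5 CPM.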
